A study of Mus with 8 samples.

Results

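The genes described here are 37 markers of epithelial identity and cell junctions, the genes by which the cells that line the uterine lumen and glands are held together in sheets and are told apart from stroma and muscle. They were taken by symbol from a table of 31269 genes in 8 RNA sequencing libraries of mouse uterus, and all 37 were found in it and passed the filter on low counts. Of the 8 libraries, 4 carry the label of a myometrium deficient in the progesterone receptor, PGR, the myometrium being the smooth muscle wall of the uterus, and 4 are labelled control. All 8 are from day 6 of pseudopregnancy, a state under progesterone that a mating with an infertile male brings about, and all are total RNA of uterine tissue. The labels place that tissue around implantation sites, although pseudopregnancy has no embryos, and the region that was taken is unclear. The sources used here give no allele, Cre driver, strain or age, and they do not say whether the libraries of a group are separate animals. The p-values below therefore speak of the spread among these libraries, which may be technical. The libraries are called deficient libraries 1 to 4 and control libraries 1 to 4 after their labels.

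Total counts ran from 70296369 to 72364750 per library, and no library was a near copy of another (chi-square per degree of freedom of at least 46.5 over all pairs). Pgr, the targeted gene, on chromosome 9 from 8898900 to 8968611 (GRCm38.p6, the assembly that mm10 names), had 187, 184, 177 and 159.7 CPM in deficient libraries 1 to 4, against 131, 180.0, 144 and 171 CPM in control libraries 1 to 4 (CPM, counts relative to the library total after TMM scaling). The log2 difference, here and below deficient over control, was 0.18 ± 0.11 (SE; edgeR adjusted p = 0.338), so the label is not borne out by a lower count, and each direction below rests on the label. Counts cover all cell types of the tissue and the whole gene. Markers of smooth muscle, stroma and luminal and glandular epithelium were all detected in each library. In such bulk RNA, fewer cells of a type and less RNA per cell cannot be told apart.

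Epithelial cells of the uterus are bound to each other by 3 kinds of junction. Tight junctions at the apical edge are built from claudins and occludin and seal the space between cells, adherens junctions hold cells together through E-cadherin, and desmosomes tie the keratin filaments of neighbouring cells together. Keratins 7, 8, 18 and 19 are the filaments of simple epithelia, and grainyhead-like, ETS and Ovol factors are transcription factors that keep epithelial genes on. In the mouse uterus, progesterone and estrogen remodel these junctions in the days when an embryo could attach.

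No member passed the test, and the members did not stand out from other genes by the number of their calls. EdgeR's quasi-likelihood test, with p adjusted over all 17629 genes that passed the filter and a threshold of 0.05, called 0 of the 37 members and 0 (0%) of all genes, the smallest adjusted p being 0.0715. At an unadjusted edgeR p under 0.05 there were 11 members (29.7%), beside 24.8% of all genes tested, a share near the background when directions are pooled. By direction, 10 members (27.0%) were higher and 1 (2.70%) lower in the deficient libraries, beside 13.0% higher and 11.8% lower of all genes. DESeq2 called 4 members (10.8%), all higher, beside 14.2% of all genes (7.43% higher and 6.72% lower), and limma-voom called 0 members and 2 of all genes (0.0113%). In 3 members (8.11%) all 4 deficient libraries lay above all 4 controls and in 0 below, beside 16.3% of all genes (7.61% above and 8.66% below). The direction was less even: 26 of 37 members (70.3%) had a positive log2 difference beside 52.0% of all genes, and the median log2 difference was 0.36 for the members beside 0.01 for all genes. These counts of direction carry no test.

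The pattern across libraries was the same in most members: deficient libraries 2 and 3 were high, and deficient libraries 1 and 4 lay near the controls. In 25 of the 37 members (67.6%) libraries 2 and 3 were the 2 highest of the 8, beside 18.2% of all genes tested, and in 3 members, Cldn1, Cldn10 and Grhl1, they were the 2 lowest (8.11%, beside 16.1%). Deficient library 2 was the highest library in 23 members (62.2%), beside 28.6% of all genes. The median member stood at 0.77 in library 2 and 0.59 in library 3 on the log2 scale relative to the control mean, against -0.11 in library 1 and -0.08 in library 4. The median over all genes lay within 0.02 of 0 in each of these libraries. Summed over the 37 members the level was 3175, 6686, 5203 and 3224 CPM in deficient libraries 1 to 4, against 3334, 3587, 3488 and 3326 CPM in control libraries 1 to 4. For this reason most members are given below by their value in every library.

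**Figure D1:**
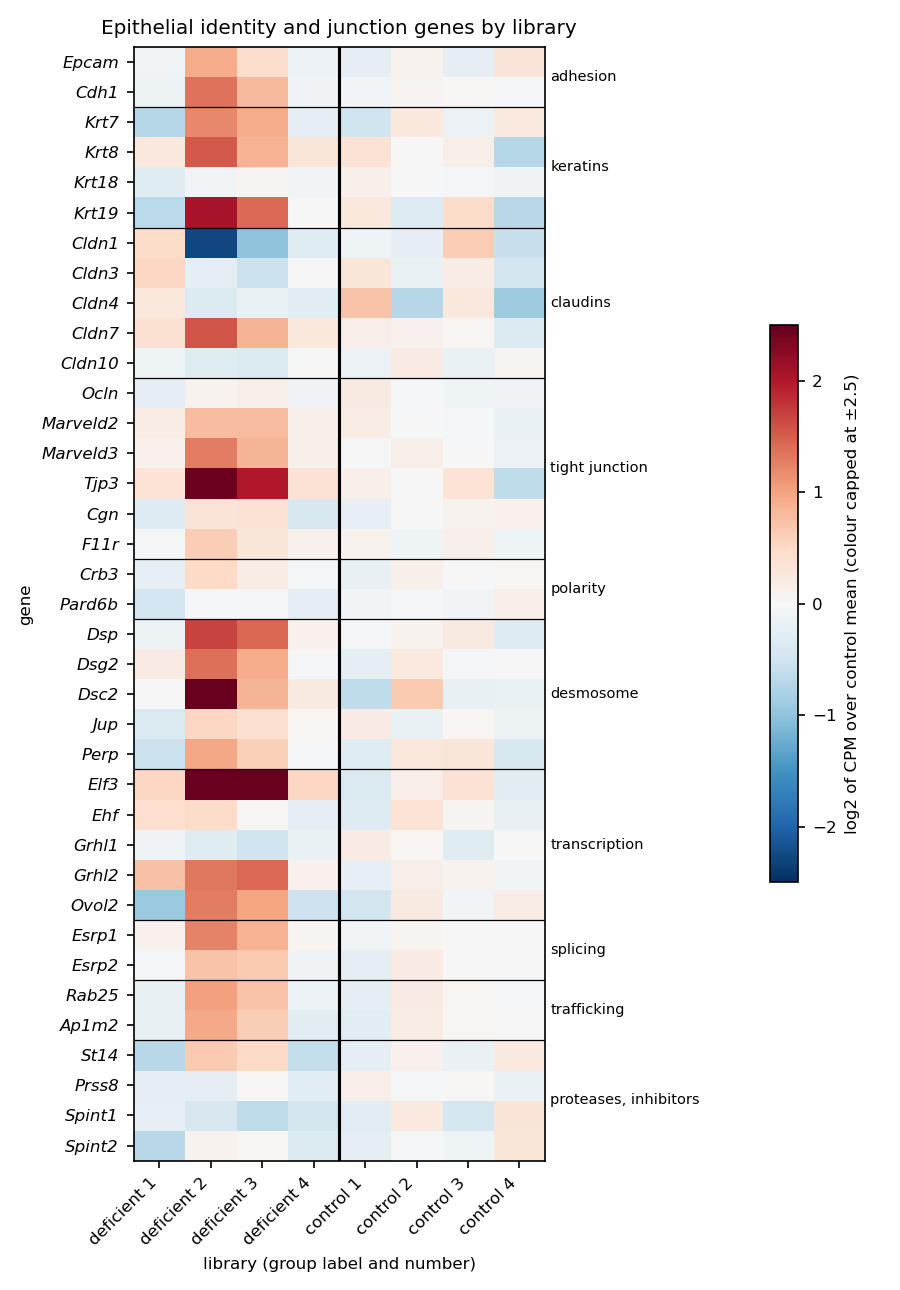
Level of each of the 37 genes (rows, grouped by role) in each library (columns, deficient left of control), as log2 of CPM over the mean of the 4 controls; colours are capped at 2.5 either way. Deficient libraries 2 and 3 are red in most rows, while Cldn1, Cldn3, Cldn4, Cldn10, Grhl1 and Spint1 are blue there.

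The adhesion proteins of the lateral membrane showed the 2 high libraries clearly. Epcam, an epithelial cell adhesion molecule, lies on chromosome 17 from 87635979 to 87651127 and had 158, 313, 223 and 148 CPM in deficient libraries 1 to 4, against 141, 174, 138 and 205 CPM in control libraries 1 to 4. Cdh1, which encodes E-cadherin, the adhesion protein of adherens junctions, lies on chromosome 8 from 106603350 to 106670247 and had 222, 625, 424 and 229 CPM in deficient libraries 1 to 4, against 232, 253, 248 and 238 CPM in control libraries 1 to 4. For both genes deficient libraries 2 and 3 lay above all controls and the groups overlapped. Deficient libraries 1 and 4 lay inside the control range for Epcam, and just below the narrow control range for Cdh1. The log2 difference was 0.35 ± 0.25 (SE; edgeR adjusted p = 0.399) for Epcam and 0.63 ± 0.32 (SE; edgeR adjusted p = 0.254) for Cdh1, neither past the threshold.

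The simple keratins differed in their pattern, and none was called. Krt8 and Krt18, whose proteins pair with each other in a filament, lie near each other on chromosome 15, from 101996711 to 102004342 and from 102028216 to 102032026. Krt8 had 209.6, 504, 318 and 216 CPM in deficient libraries 1 to 4, against 224, 174, 192 and 107 CPM in control libraries 1 to 4. Krt18 had 233, 271, 300.5 and 271 CPM in deficient libraries 1 to 4, against 310.0, 285, 280.3 and 268 CPM in control libraries 1 to 4. Deficient libraries 2 and 3 were thus the highest in Krt8 and lay inside the control range in Krt18. The ratio of Krt8 to Krt18 counts, which no scaling between libraries touches, was 0.901, 1.86, 1.06 and 0.799 in deficient libraries 1 to 4, against 0.723, 0.612, 0.684 and 0.400 in control libraries 1 to 4. All 4 deficient libraries lay above all 4 controls in this ratio, which was chosen after its values were seen and carries no test. The log2 difference was 0.84 ± 0.32 (SE; edgeR adjusted p = 0.166) for Krt8 and -0.09 ± 0.09 (SE; edgeR adjusted p = 0.547) for Krt18. Krt19, a small acidic keratin, on chromosome 11 from 100140810 to 100145926, had 80.6, 534, 344 and 130.1 CPM in deficient libraries 1 to 4, against 154, 103, 177 and 79.9 CPM in control libraries 1 to 4. It ran from among the lowest of the 8 libraries in deficient library 1 to the highest in library 2, and its log2 difference was 1.08 ± 0.57 (SE; edgeR adjusted p = 0.268). Krt7, a partner of the acidic keratins, had 119.8, 453, 373 and 169 CPM in deficient libraries 1 to 4, against 140.3, 237, 178 and 234 CPM in control libraries 1 to 4, with a log2 difference of 0.50 ± 0.41 (SE; edgeR adjusted p = 0.468) and overlap between the groups.

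Of the 5 claudins, the strand-forming proteins of tight junctions, 1 had a positive difference with no overlap between the groups, and the other 4 had small or uneven negative differences, of which those of Cldn3 and Cldn4 changed sign when single libraries were left out. Cldn7, on chromosome 11 from 69964779 to 69967886, had 74.5, 171, 103 and 69.5 CPM in deficient libraries 1 to 4, against 63.3, 62.1, 59.3 and 45.6 CPM in control libraries 1 to 4. All 4 deficient libraries lay above all controls, also libraries 1 and 4. Cldn7 averaged 105 ± 46.9 CPM in the deficient libraries and 57.6 ± 8.15 CPM in the controls (SD, n = 4 each), and the log2 difference was 0.86 ± 0.28 (SE; edgeR adjusted p = 0.128). DESeq2 called it (adjusted p = 0.028), but not after leaving out any 1 of the controls, or deficient library 2 or 3. Cldn1, on chromosome 16 from 26356645 to 26371839, had 49.4, 7.42, 17.9 and 29.2 CPM in deficient libraries 1 to 4, against 33.5, 30.3, 55.9 and 24.2 CPM in control libraries 1 to 4. Here deficient libraries 2 and 3 were the lowest and library 1 second only to control library 3, so the difference of -0.47 ± 0.52 (SE; edgeR adjusted p = 0.592) is the mean of unlike values. Cldn3 and Cldn4, neighbours on chromosome 5 whose proteins both bind Clostridium perfringens enterotoxin, varied widely within each group. Cldn3 had 220.5, 130.0, 106 and 152 CPM in deficient libraries 1 to 4, against 189.9, 138, 176 and 112 CPM in control libraries 1 to 4, and Cldn4 had 46.4, 30.3, 34.6 and 32.6 CPM in the deficient libraries in the same order and 63.9, 23.7, 47.0 and 20.9 CPM in the controls. Control libraries 1 and 3 were the high controls and 4 the lowest for both genes, and the log2 differences were -0.02 ± 0.25 and -0.11 ± 0.35 (SE). Cldn10 had 148, 129, 126 and 159 CPM in deficient libraries 1 to 4, against 145, 184, 143 and 168 CPM in control libraries 1 to 4, with a log2 difference of -0.19 ± 0.11. The count ratio of Cldn7 to Cldn3 was 0.338, 1.32, 0.978 and 0.456 in deficient libraries 1 to 4, against 0.334, 0.449, 0.338 and 0.407 in control libraries 1 to 4, so libraries 2 and 3 held relatively more Cldn7 than any other library.

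Among the other tight junction genes the scaffold Tjp3 differed most. Tjp3, which encodes ZO-3, a cytoplasmic scaffold, on chromosome 10 from 81273188 to 81291581, had 47.4, 205, 149 and 48.0 CPM in deficient libraries 1 to 4, against 40.8, 36.9, 47.2 and 24.1 CPM in control libraries 1 to 4. All deficient libraries lay above the highest control, libraries 1 and 4 by less than 1 CPM, and libraries 2 and 3 lay far above the other 6. Tjp3 averaged 112 ± 78.0 CPM in the deficient libraries and 37.2 ± 9.71 CPM in the controls (SD, n = 4 each). The log2 difference was 1.59 ± 0.50 (SE; edgeR adjusted p = 0.122), and DESeq2 called it (adjusted p = 0.0113), though not without control library 4 or deficient library 2 or 3. The span of Tjp3 overlaps that of Apba3, and no source says whether the counting used strand. Apba3 had 56.8, 39.2, 44.3 and 52.8 CPM in deficient libraries 1 to 4, against 52.4, 62.0, 55.5 and 57.7 CPM in control libraries 1 to 4, lowest in the libraries where Tjp3 was highest.

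Ocln, which encodes occludin, a membrane protein of the tight junction, varied little, with 28.9, 36.2, 37.9 and 32.4 CPM in deficient libraries 1 to 4, against 39.9, 33.0, 31.8 and 32.3 CPM in control libraries 1 to 4. Marveld2, which encodes tricellulin, the protein of 3-cell contacts, had 25.4, 37.9, 38.0 and 24.3 CPM in deficient libraries 1 to 4, against 25.3, 22.1, 21.8 and 19.9 CPM in control libraries 1 to 4, and Marveld3, a relative of both, had 18.7, 42.4, 31.4 and 19.0 CPM in the deficient libraries in the same order and 17.4, 19.4, 17.6 and 15.8 CPM in the controls. Tricellulin and Marveld3 thus followed libraries 2 and 3 while occludin, of the same MARVEL domain family, did not. The log2 differences were -0.02 ± 0.11 (SE; edgeR adjusted p = 0.939) for Ocln, 0.50 ± 0.17 (SE; edgeR adjusted p = 0.14) for Marveld2 and 0.67 ± 0.26 (SE; edgeR adjusted p = 0.166) for Marveld3. Cgn, which encodes the junction plaque protein cingulin, had 50.2, 78.5, 80.7 and 47.4 CPM in deficient libraries 1 to 4, against 54.7, 62.0, 66.3 and 67.8 CPM in control libraries 1 to 4. Deficient libraries 2 and 3 lay above all controls and 1 and 4 below them, which left a log2 difference of 0.03 ± 0.19 with a sign that turned under library totals (-0.0149). F11r, which encodes the junctional adhesion molecule JAM-A, also made by endothelium and blood cells, was at 0.27 ± 0.14, with 113, 177, 142 and 124 CPM in deficient libraries 1 to 4, against 122, 106, 126 and 107 CPM in control libraries 1 to 4. Of the polarity genes, Crb3, an apical determinant, had 17.6, 28.7, 23.1 and 19.7 CPM in deficient libraries 1 to 4, against 17.8, 22.1, 20.1 and 20.9 CPM in control libraries 1 to 4. Pard6b, part of the PAR complex, had 18.6, 25.1, 25.2 and 21.9 CPM in deficient libraries 1 to 4, against 24.6, 25.4, 24.7 and 28.5 CPM in control libraries 1 to 4. The groups overlapped for both, with deficient library 1 the lowest of the 8 in each, and the log2 differences were 0.14 ± 0.16 for Crb3 and -0.19 ± 0.11 for Pard6b.

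All 5 desmosome genes had positive differences, and none passed. Dsp encodes desmoplakin, which links the junction to keratin filaments. It had 63.9, 226, 188 and 74.9 CPM in deficient libraries 1 to 4, against 67.2, 74.2, 81.8 and 55.6 CPM in control libraries 1 to 4, so libraries 2 and 3 were the highest and libraries 1 and 4 lay inside the control range. Dsg2, a desmosomal cadherin of simple epithelia, had 50.1, 112, 83.2 and 42.4 CPM in deficient libraries 1 to 4, against 37.2, 51.7, 42.0 and 42.9 CPM in control libraries 1 to 4. Its partner Dsc2 had 21.3, 162, 38.8 and 25.0 CPM in deficient libraries 1 to 4, against 13.9, 33.8, 18.9 and 19.2 CPM in control libraries 1 to 4. Library 2 stood far from the rest in Dsc2, in a way that library 3 did not share. The log2 differences were 0.99 ± 0.40 (SE; edgeR adjusted p = 0.18) for Dsp, 0.73 ± 0.29 (SE; edgeR adjusted p = 0.177) for Dsg2 and 1.53 ± 0.67 (SE; edgeR adjusted p = 0.202) for Dsc2. Jup, which encodes plakoglobin, an armadillo protein of desmosomes and adherens junctions, had 121, 221, 203 and 160.0 CPM in deficient libraries 1 to 4, against 178, 137, 161 and 142 CPM in control libraries 1 to 4. Perp, a tetraspan protein of desmosomes, had 46.0, 131, 101 and 65.5 CPM in deficient libraries 1 to 4, against 54.2, 81.2, 82.4 and 51.0 CPM in control libraries 1 to 4. In both, deficient library 2 was the highest and deficient library 1 the lowest of the 8, and the log2 differences were 0.19 ± 0.18 for Jup and 0.36 ± 0.32 for Perp.

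Library 2 also held some keratins of stratified epithelium, the layered kind found in skin. Krt5, a basal keratin, had 0.0276, 102, 0.695 and 0.0274 CPM in deficient libraries 1 to 4, against 0.0413, 0.437, 0.0548 and 0.0423 CPM in control libraries 1 to 4. Krt14, its partner, was at 11.2 CPM and Krt15 at 17.2 CPM in deficient library 2, and at no more than 0.183 and 0.150 CPM in any other library. These 3 genes did not pass the filter on low counts, and they were picked out once their values were known. Their part in the levels of Dsc2 and the other members in library 2 was not tested. In library 3, where most members were also high, Krt5 was at 0.695 CPM.

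**Figure D2:**
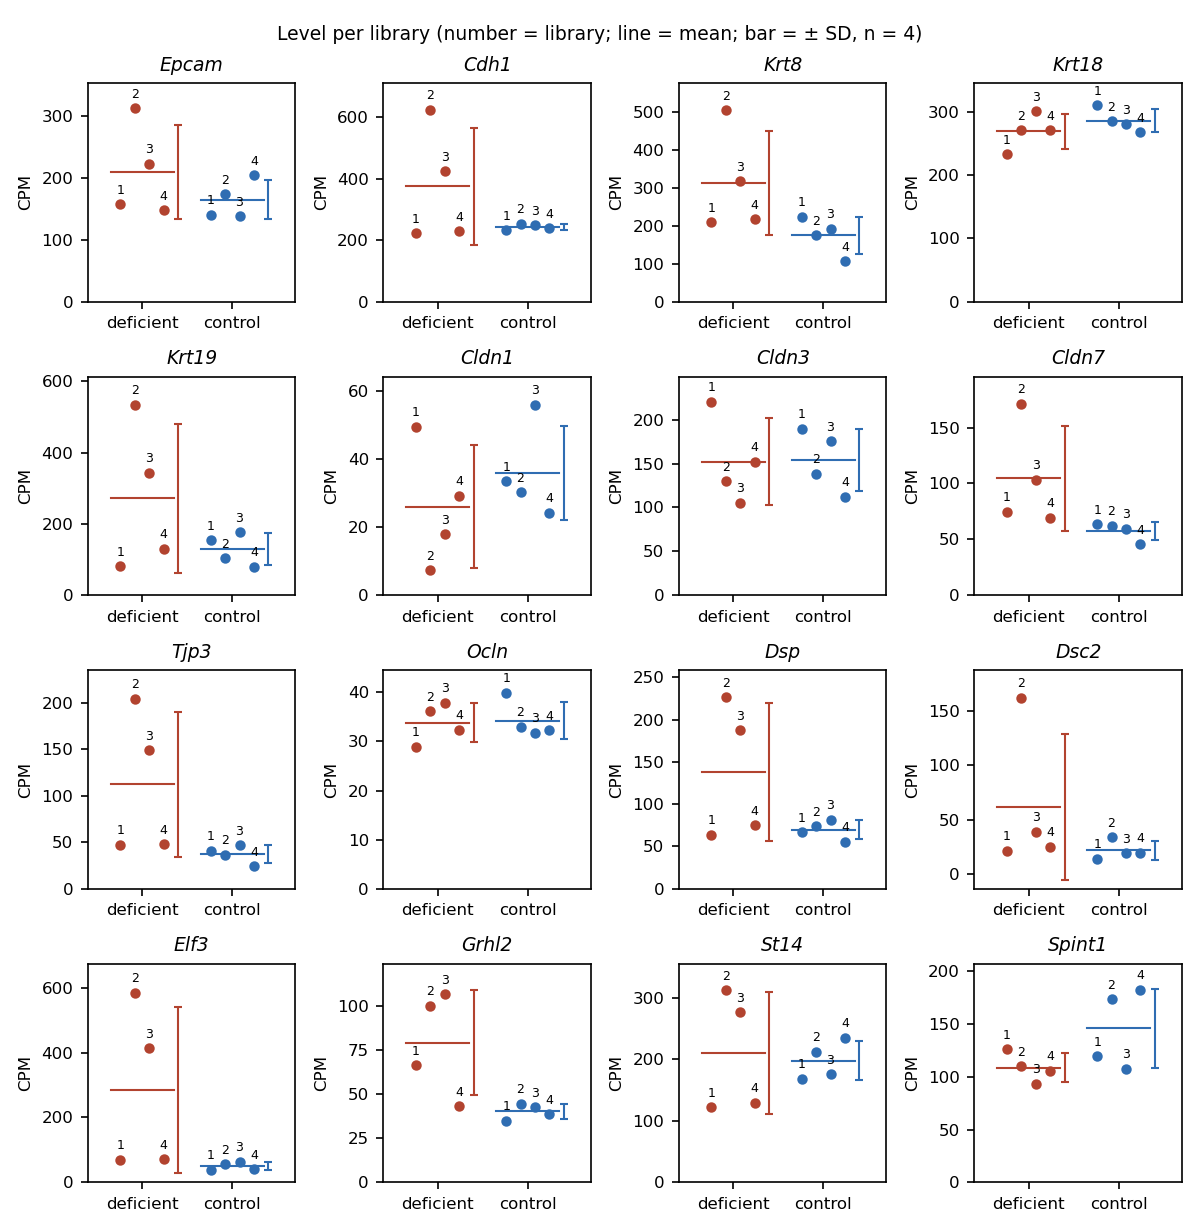
CPM of 16 members in each library, deficient left of control; points carry the library number, lines are means and bars ± SD (n = 4). Deficient libraries 2 and 3 lie above the other libraries in Cdh1, Krt8, Krt19, Tjp3, Dsp and Elf3, and at the bottom in Cldn1, while Krt18 and Ocln differ little.

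Among the transcription factors Elf3 had the widest difference of all 37 members. Elf3, an epithelial ETS factor, on chromosome 1 from 135253574 to 135258472, had 69.1, 586, 413 and 69.9 CPM in deficient libraries 1 to 4, against 37.8, 54.5, 62.0 and 40.0 CPM in control libraries 1 to 4. All 4 deficient libraries lay above all controls, and libraries 2 and 3 stood at 12.1 and 8.51 times the control mean and libraries 1 and 4 at 1.42 and 1.44 times. Elf3 averaged 284 ± 258 CPM in the deficient libraries and 48.6 ± 11.6 CPM in the controls (SD, n = 4 each), so the spread of the deficient group was of the size of its mean. The log2 difference was 2.55 ± 0.72 (SE; edgeR adjusted p = 0.107). DESeq2 called Elf3 (adjusted p = 0.0108), and did not without deficient library 2 or 3. Ehf, its close relative among ETS factors, had 218, 224, 167 and 138 CPM in deficient libraries 1 to 4, against 129.8, 206, 171 and 142 CPM in control libraries 1 to 4, with overlap between the groups and a log2 difference of 0.20 ± 0.19. The count ratio of Elf3 to Ehf was 0.318, 2.62, 2.48 and 0.508 in deficient libraries 1 to 4, against 0.291, 0.264, 0.362 and 0.282 in control libraries 1 to 4, so it was higher in deficient libraries 2 and 3 than in the other 6.

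Grhl2, a grainyhead-like factor that keeps Cdh1 and claudin genes on in epithelia, lies on chromosome 15 from 37232821 to 37363569 and had 66.7, 100.4, 107 and 43.2 CPM in deficient libraries 1 to 4, against 35.1, 44.7, 42.9 and 38.7 CPM in control libraries 1 to 4. Deficient libraries 1, 2 and 3 lay above all controls and library 4 within their range. Grhl2 averaged 79.3 ± 29.8 CPM in the deficient libraries and 40.3 ± 4.30 CPM in the controls (SD, n = 4 each). The log2 difference was 0.98 ± 0.26 (SE; edgeR adjusted p = 0.102), the smallest p among the members. DESeq2 called Grhl2 with all libraries (adjusted p = 0.00722) and after leaving out any single library, and did not without libraries 2 and 3 together (adjusted p = 0.152). Its relative Grhl1 had 5.18, 4.46, 3.90 and 4.91 CPM in deficient libraries 1 to 4, against 6.38, 5.73, 4.48 and 5.44 CPM in control libraries 1 to 4, with a log2 difference of -0.25 ± 0.16. Ovol2, a zinc finger repressor of mesenchymal genes, had 3.54, 16.3, 13.2 and 4.67 CPM in deficient libraries 1 to 4, against 4.92, 7.83, 6.45 and 7.69 CPM in control libraries 1 to 4. In Ovol2 libraries 2 and 3 lay above all controls and libraries 1 and 4 below them, so the groups overlapped and the difference of 0.49 ± 0.48 describes neither pair of libraries.

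Esrp1 and Esrp2, splicing factors that select epithelial exons, and the trafficking genes Rab25, a small GTPase of recycling endosomes, and Ap1m2, a subunit of the epithelial AP-1B adaptor, shared 1 shape. Esrp1 had 53.8, 117, 91.0 and 52.0 CPM in deficient libraries 1 to 4, against 47.4, 52.3, 49.5 and 50.1 CPM in control libraries 1 to 4. The controls and deficient libraries 1 and 4 lay close together, with library 2 at 2.35 and library 3 at 1.83 times the control mean. Rab25 had 40.4, 94.2, 75.3 and 41.9 CPM in deficient libraries 1 to 4, against 39.1, 53.3, 48.0 and 44.5 CPM in control libraries 1 to 4. Libraries 2 and 3 again lay above the rest, which overlapped. Relative to the control mean, libraries 2 and 3 stood at 1.65 and 1.58 for Esrp2, 2.04 and 1.63 for Rab25, and 1.94 and 1.54 for Ap1m2, beside 1.90 and 1.35 for Epcam. The log2 difference was 0.66 ± 0.25 (SE; edgeR adjusted p = 0.165) for Esrp1, 0.37 ± 0.20 for Esrp2, 0.45 ± 0.28 for Rab25 and 0.37 ± 0.27 for Ap1m2.

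The membrane serine protease St14 and its inhibitors differed in their pattern. St14 encodes matriptase, a protease of the epithelial surface, and Prss8 encodes prostasin, which acts with it. Spint1 and Spint2 encode HAI-1 and HAI-2, Kunitz inhibitors of matriptase. St14 had 122, 313, 276 and 129 CPM in deficient libraries 1 to 4, against 169, 212, 176 and 235 CPM in control libraries 1 to 4, and Spint1 had 126, 109.9, 93.5 and 106 CPM in the deficient libraries in the same order and 119.7, 174, 108 and 183 CPM in the controls. In St14 the deficient libraries lay on both sides of all controls, 2 and 3 above and 1 and 4 below, and its log2 difference was 0.09 ± 0.32. In Spint1 control libraries 2 and 4 were the highest of the 8, and its difference of -0.42 ± 0.18 (SE; edgeR adjusted p = 0.2) was the 1 with an unadjusted p under 0.05 on the lower side. The count ratio of Spint1 to St14 was 1.04, 0.351, 0.338 and 0.817 in deficient libraries 1 to 4, against 0.709, 0.818, 0.613 and 0.777 in control libraries 1 to 4. Libraries 2 and 3 were thus lowest in this ratio. Spint2 had 153, 263, 253 and 196 CPM in deficient libraries 1 to 4, against 209, 244, 231 and 307 CPM in control libraries 1 to 4. Prss8 had 58.7, 59.4, 70.5 and 57.7 CPM in deficient libraries 1 to 4, against 77.4, 67.2, 70.4 and 62.0 CPM in control libraries 1 to 4. The groups overlapped for both, with deficient libraries 1 and 4 below all controls, and in Prss8 deficient library 2 as well. The log2 differences were -0.20 ± 0.19 for Spint2 and -0.17 ± 0.09 for Prss8. The span of Prss8 overlaps that of Kat8, that of Cldn3 overlaps Wbscr25 and that of Esrp2 overlaps Nfatc3, and reads there cannot be told apart where the counting did not use strand.

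Set against Epcam within each library, the members kept no fixed proportion in libraries 2 and 3. The log2 ratio of a member's count to that of Epcam lay above the range of all 4 controls in both libraries 2 and 3 for 12 of the other 36 members and below it for 7. Among those above were Elf3 (2.68 and 2.66 in libraries 2 and 3 relative to the control mean, against -0.59 to 0.61 in the controls), Tjp3 (1.55 and 1.59, against -0.92 to 0.61) and Krt19 (1.18 and 1.03, against -0.95 to 0.76). Those below were Cldn1, Cldn3, Cldn10, Pard6b, Grhl1, Spint1 and Spint2. Epcam itself lay above all controls in both libraries, so a gene with an unchanged level falls in this ratio. By CPM, Pard6b and Spint2 lay inside the control range in libraries 2 and 3. Cldn1 stood at -3.15 and -1.39 against -0.83 to 0.94 in the controls, and Spint1 at -1.32 and -1.06 against -0.17 to 0.19. Libraries 1 and 4 both lay above the controls for 1 member, Cldn7, and both below for 4, Cgn, Ovol2, St14 and Spint2. A range of 4 libraries is narrow, the share of all genes outside it was not computed, and no test was made of these positions.

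**Figure D3:**
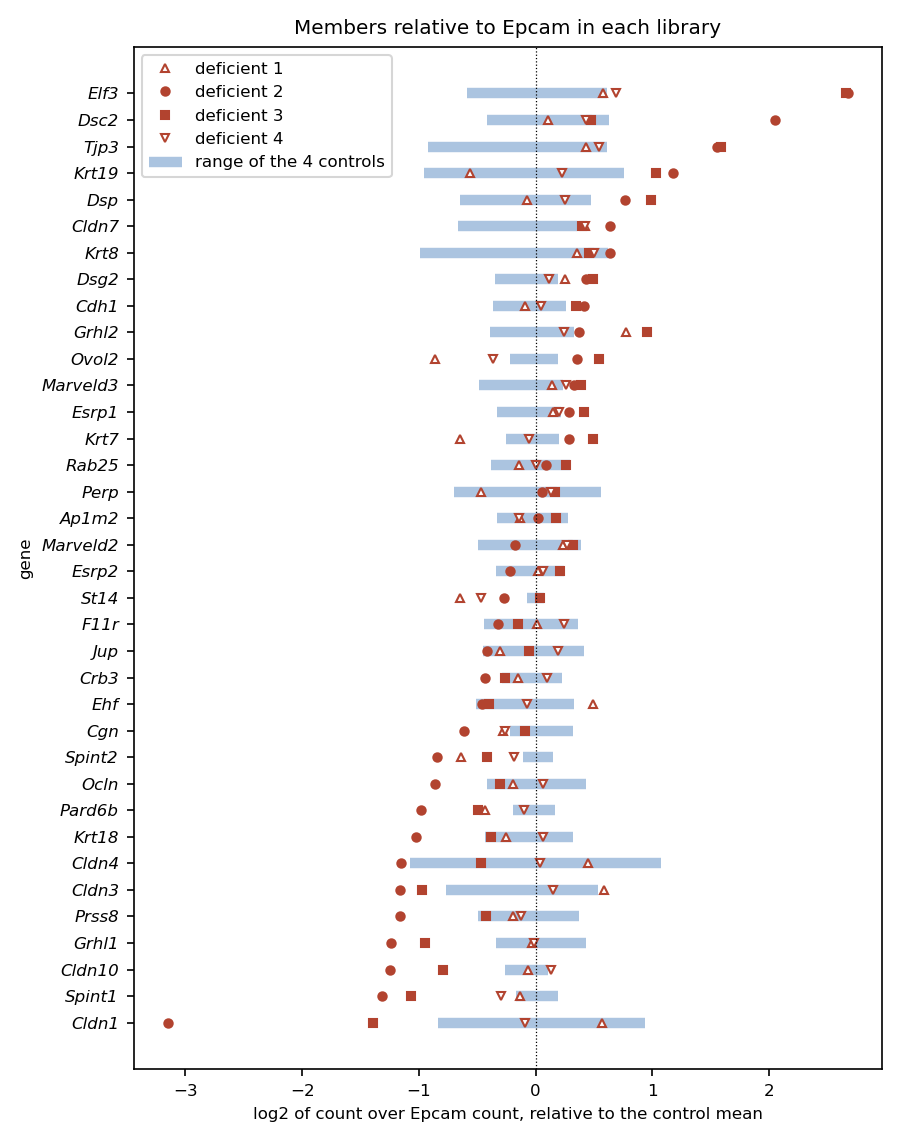
Log2 of each member's count over the Epcam count of the same library, relative to the control mean, in the 4 deficient libraries (red symbols, filled for libraries 2 and 3) and as the range of the 4 controls (blue bars), ordered by library 2. Elf3 and Tjp3 lie right of the control range and Cldn1, Cldn3, Cldn10, Grhl1 and Spint1 left of it in libraries 2 and 3.

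Deficient libraries 2 and 3 were then left out, a choice made after their high values in most members were seen. A lower median of the members follows from that choice, and the p-values here are not independent of it. The median log2 difference of the members was -0.10, and edgeR called 0. A positive difference was found in 15 members (40.5%) and a negative in 22, beside 9186 positive of 18022 genes tested. At an unadjusted edgeR p under 0.05 there were 9 members (24.3%), 3 higher and 6 lower, beside 18.4% of all genes. In 10 members the 2 remaining deficient libraries lay beyond all 4 controls, 3 above and 7 below, a share of 27.0%, beside 29.8% of all genes. The 3 above were Cldn7 (0.33 ± 0.13), Tjp3 (0.36 ± 0.23) and Elf3 (0.52 ± 0.20, log2 ± SE), which thus kept their sign at a smaller size. The 7 below were Cdh1, Cgn, Pard6b, Ovol2, St14, Prss8 and Spint2. St14 was at -0.65 ± 0.15 (DESeq2 adjusted p = 0.00227) and Cgn at -0.36 ± 0.10 (DESeq2 adjusted p = 0.0359), the 2 members DESeq2 called there, beside 8.44% of all genes. Grhl2 was at 0.45 ± 0.18, Krt8 at 0.29 ± 0.26 and Dsp at -0.00225 ± 0.15.

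**Figure D4:**
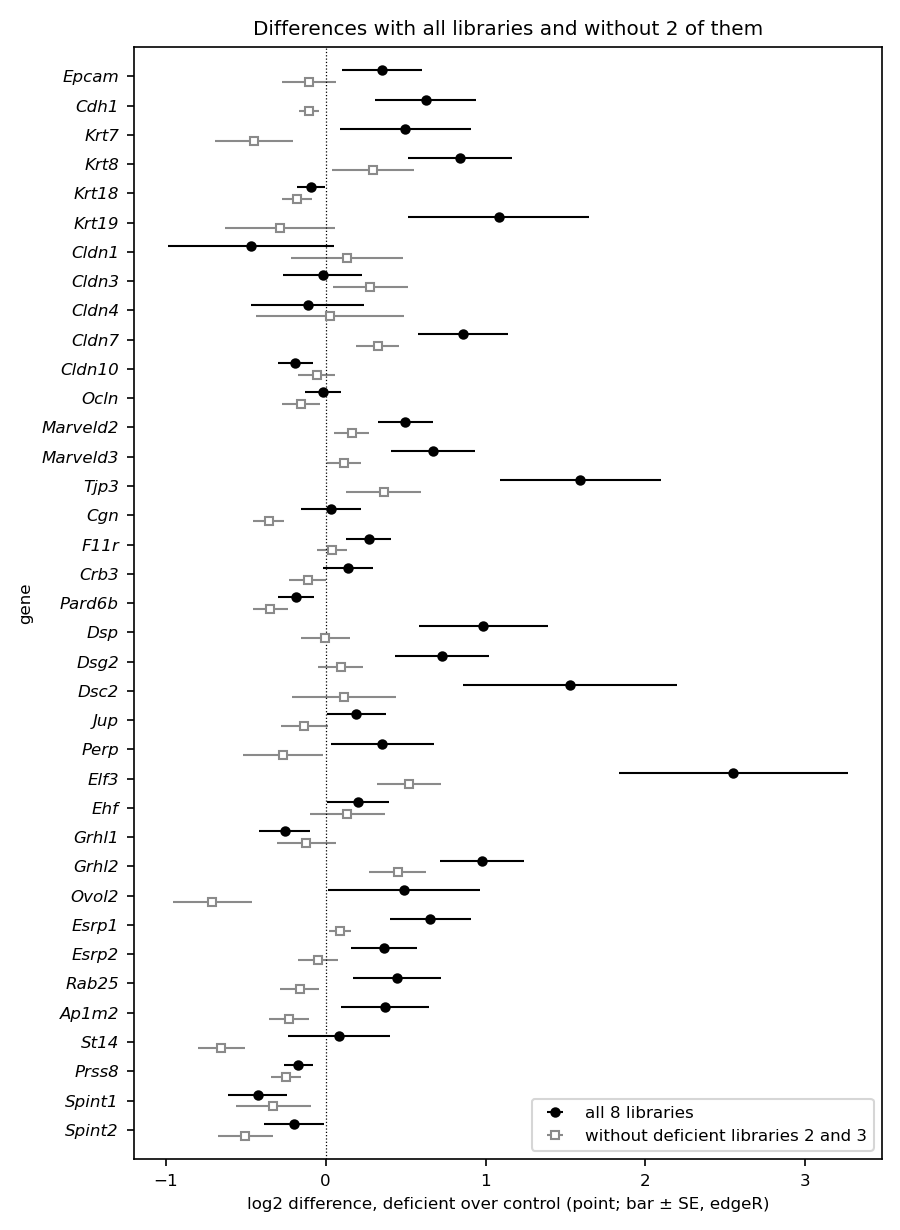
Log2 difference of deficient over control (± SE, edgeR) for each member with all 8 libraries (black circles) and without deficient libraries 2 and 3 (open squares). Most squares lie left of their circles; Elf3, Tjp3 and Cldn7 stay right of 0, and St14, Ovol2 and Krt7 lie left of it.

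Other genes of the junctions, on lists that were chosen with earlier results of these data known, had differences in both directions. Of 21 tested genes of tight junctions and polarity 14 had positive and 7 negative differences, with a median of 0.05; edgeR called 0, and DESeq2 called 2 higher and 1 lower. Ildr1, a receptor of 3-cell contacts, had 53.0, 47.8, 39.8 and 32.6 CPM in deficient libraries 1 to 4, against 19.0, 27.8, 23.8 and 17.2 CPM in control libraries 1 to 4. All deficient libraries lay above all controls, also without libraries 2 and 3, where Ildr1 was at 0.97 ± 0.24 against 0.98 ± 0.19 (SE; edgeR adjusted p = 0.0906) with all. Cldn2, a claudin that forms cation pores, had 3.83, 75.1, 39.6 and 8.95 CPM in deficient libraries 1 to 4, against 2.15, 8.82, 2.71 and 3.71 CPM in control libraries 1 to 4. Libraries 2 and 3 were the highest by far, and the log2 difference was 2.87 ± 0.93 (SE; edgeR adjusted p = 0.125). Cldn8, a sealing claudin, had 12.0, 5.0, 9.55 and 24.6 CPM in deficient libraries 1 to 4, against 27.8, 31.6, 38.9 and 30.2 CPM in control libraries 1 to 4, where all deficient libraries lay below all controls. Its log2 difference was -1.33 ± 0.42 (SE; edgeR adjusted p = 0.122). Tjp1, which encodes ZO-1 and is also made by other cell types, was at -0.26 ± 0.09, and its deficient libraries lay below all controls too.

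Of 15 tested genes of adherens junctions and desmosomes 12 had positive and 3 negative differences, with a median of 0.27; edgeR called 0, and DESeq2 called 2 higher and 1 lower. Pkp3, a plakophilin of desmosomes, was at 0.65 ± 0.22 (SE; edgeR adjusted p = 0.133), with 29.1, 52.1, 42.9 and 27.7 CPM in deficient libraries 1 to 4, against 26.5, 24.2, 26.6 and 19.5 CPM in control libraries 1 to 4 and no overlap between the groups. Ppl, which encodes the cornified envelope protein periplakin, was at -0.58 ± 0.16 (SE; edgeR adjusted p = 0.104), with 64.7, 71.7, 99.9 and 81.6 CPM in deficient libraries 1 to 4, against 94.0, 115, 132 and 135 CPM in control libraries 1 to 4. The nectin genes listed as Pvrl1 and Pvrl3 were at 0.43 ± 0.18 and 0.34 ± 0.11. Of 10 tested keratins and epithelial transcription factors outside the members 5 were positive and 5 negative, DESeq2 called 0 and edgeR called 0. Spdef, an ETS factor of secretory cells, was at 0.60 ± 0.23, Klf5 at -0.40 ± 0.18, Elf5 at 0.93 ± 0.54 and Krt80 at -0.34 ± 0.25.

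Genes of the mesenchymal state, which several of the members oppose in cultured cells, went in both directions. Of 11 tested, 8 had positive and 3 negative differences; edgeR called 0, and DESeq2 called 2 higher and 1 lower. Cdh2, which encodes N-cadherin, had 8.45, 5.41, 10.002 and 8.76 CPM in deficient libraries 1 to 4, against 18.5, 12.0, 15.3 and 19.5 CPM in control libraries 1 to 4, with all deficient libraries below all controls. Its log2 difference was -1.004 ± 0.22 (SE; edgeR adjusted p = 0.0906). Cdh11, a cadherin of stroma, was at 0.25 ± 0.07 (SE; edgeR adjusted p = 0.102) with all deficient libraries above the controls, S100a4 at 0.48 ± 0.16 and Fn1, fibronectin, at 0.37 ± 0.14.

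Markers of other cell types give the setting of these values, and their part in them was not tested. Of 8 smooth muscle markers 8 had negative differences, with a summed level from 4176 to 4880.3 CPM in the deficient libraries and from 4223 to 6318 CPM in the controls; 0 were called by edgeR or DESeq2, and Smtn was at -0.37 ± 0.13 and Lmod1 at -0.45 ± 0.15. Of 7 stromal markers 3 were positive and 4 negative, with sums from 7049.8 to 8451 CPM in the deficient libraries and from 5383 to 6937 CPM in the controls. Most of these sums was Col1a1 and Col3a1. Their means were 2363 and 2825 CPM in the deficient libraries, against 1483 and 2242 CPM in the controls. Lum was the other positive marker. EdgeR called 0, and DESeq2 called Col1a1 (0.67 ± 0.21) and Col3a1 (0.33 ± 0.11) higher and Hand2 (-0.75 ± 0.25) lower. Mesothelial cells, which cover the uterus and also make keratins 7, 8, 18 and 19, had 7 of 7 markers negative, and edgeR called 0. Their summed level was 200.0, 154, 248 and 245 CPM in deficient libraries 1 to 4, against 336, 329, 299.8 and 389 CPM in control libraries 1 to 4. Most of it was Wt1, which had 145, 103, 191 and 184 CPM in the deficient libraries in the same order and 268, 259, 254 and 271 CPM in the controls. Wt1 averaged 263 CPM in the controls, where the next highest marker of this list, Upk3b, averaged 30.5 CPM. Which cells made Wt1 was not tested. The other 6 markers summed to 55.3, 51.3, 56.8 and 60.2 CPM in deficient libraries 1 to 4, against 67.9, 69.7, 45.5 and 117 CPM in control libraries 1 to 4, with control library 3 the lowest of the 8. DESeq2 called Wt1 (-0.76 ± 0.18) and Upk1b (-0.68 ± 0.15) lower, and the groups overlapped for the other 5. The trophoblast list, checked because the labels speak of implantation sites, had sums from 0.756 to 1.83 CPM in the deficient libraries and from 2.30 to 3.23 CPM in the controls. In it Hand1 was at 0 in all libraries, and Prl3d1, Prl2c2, Cdx2 and Gcm1 were each at no more than 0.0423 CPM, while DESeq2 called Ascl2 (-1.09 ± 0.34), which other cells also make, lower. On the oviduct and ciliated list 2 genes were positive and 4 negative. Its sums ran from 46.3 to 281 CPM in the deficient libraries and from 48.1 to 80.3 CPM in the controls. Foxj1 was at 17.8 CPM in deficient library 2 and between 0.816 and 6.34 CPM elsewhere, and Ovgp1 at 269.9 CPM in deficient library 1. Ccdc39 (-0.65 ± 0.26) lay below all controls in all deficient libraries. In deficient library 2 Ccdc39, Tekt1 and Ovgp1 were the lowest of the 8 libraries, at 3.26, 0.0742 and 21.4 CPM.

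Luminal and gland markers took different shapes across the libraries. The 7 luminal markers summed to 343, 765, 403 and 271 CPM in deficient libraries 1 to 4, against 238, 221, 286 and 143 CPM in control libraries 1 to 4, of which Sprr2f alone gave 575 CPM in deficient library 2. Without Sprr2f the sums were 313, 189.6, 234 and 236 CPM in deficient libraries 1 to 4, against 231, 158, 211 and 135 CPM in control libraries 1 to 4, and deficient library 2 was then the lowest of its group. In the same list Wnt7b, a secreted Wnt of the lumen, had 2.38, 20.8, 40.4 and 7.63 CPM in deficient libraries 1 to 4, against 48.6, 51.9, 19.6 and 82.6 CPM in control libraries 1 to 4. The 7 gland markers summed to 447, 114, 167 and 1149 CPM in deficient libraries 1 to 4, against 1183, 1111, 208 and 527 CPM in control libraries 1 to 4. Most of this in the libraries with high sums was Prss28 and Prss29, a pair of gland proteases. Prss29 had 200.0, 5.32, 72.7 and 721 CPM in deficient libraries 1 to 4, against 667, 725, 93.9 and 361 CPM in control libraries 1 to 4. The other 5 gland markers summed to 196, 107, 80.8 and 199 CPM in deficient libraries 1 to 4, against 139, 114, 96.7 and 61.9 CPM in control libraries 1 to 4, with control library 4 the lowest of the 8. The sums without the leading genes were added after seeing the data. Sox9, a transcription factor of glandular epithelium, had 130.4, 91.3, 64.3 and 98.6 CPM in deficient libraries 1 to 4, against 30.0, 57.2, 39.7 and 35.5 CPM in control libraries 1 to 4 and a log2 difference of 1.24 ± 0.25 (SE; edgeR adjusted p = 0.0906). It lay above all controls in all 4 deficient libraries, and DESeq2 called it higher. Of the gland list 4 of 7 genes had negative differences, and of the luminal list 1 of 7; edgeR called 0 in both, and DESeq2 called 1, Sox9.

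**Figure D5:**
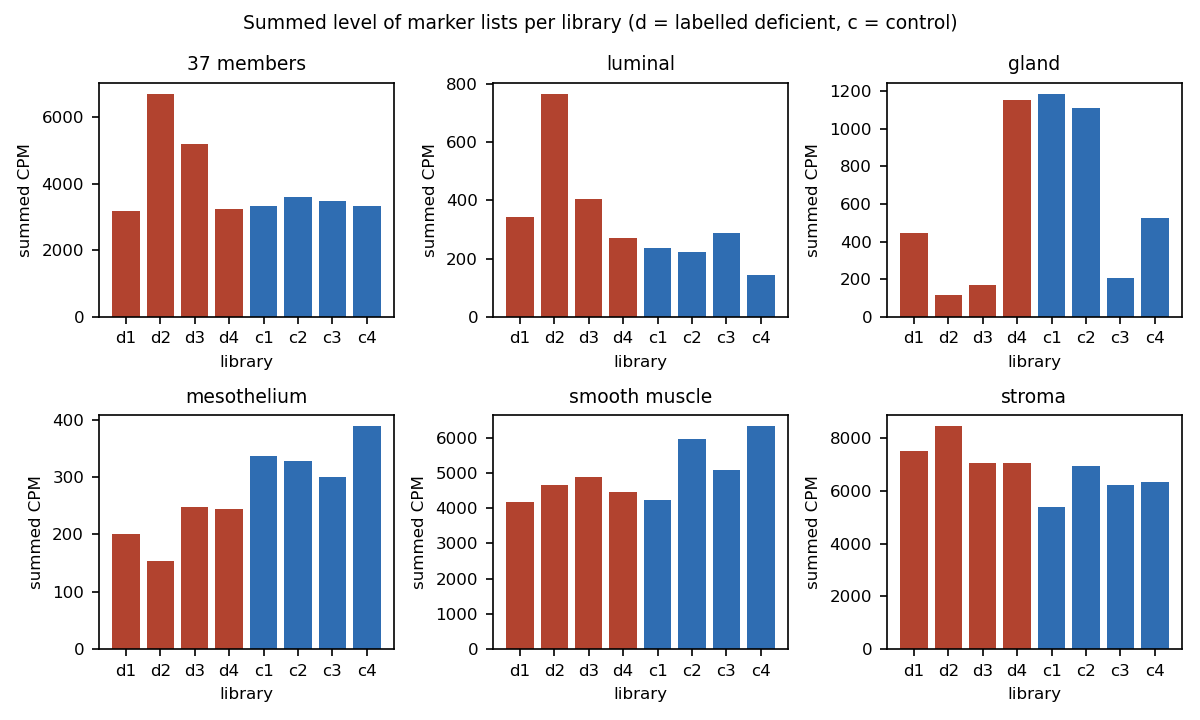
Summed CPM of the 37 members and of 5 marker lists in each library (bars; d for deficient, left, and c for control, right; 1 bar per library, no error). Libraries d2 and d3 are highest for the members. The gland sum is carried by Prss28 and Prss29 in the libraries where it is high, and not in d2. The mesothelial sum is carried by Wt1 and the stromal sum largely by Col1a1 and Col3a1.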

How the data were processed

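The authors deposited raw counts, 1 column for each of the 8 libraries and 1 row for each of 31269 gene symbols. Per the labels' protocols, RNA was extracted with TRIzol and libraries were made by standard Illumina protocols. HISAT2 2.2.1, HTSeq 0.10.0 and the build mm10 are named in the submitters' processing notes; settings, strand included, are not given in the sources. Columns were matched to sample titles. A RefSeq gene table of GRCm38.p6 gave coordinates and older symbols, and 22353 symbols matched it directly. It holds gene spans and no transcript lengths, so levels were not compared between genes, and promoter motifs were not analysed here. Genes were filtered with filterByExpr (17629 kept), scaled by TMM and tested with edgeR 4.0.16 (glmQLFit with legacy=TRUE and glmQLFTest, R 4.3.3), group as the only term, with Benjamini-Hochberg adjustment over all genes and a threshold of 0.05. CPM are counts relative to the TMM-scaled library total; SE is the size of the log2 difference over the root of F. The fits were tested on simulated data. DESeq2 1.42.0, limma-voom (limma 3.58.1), other scalings and filters, a replicate block and leaving out each library were alternatives; DESeq2 without each library, and fits without deficient libraries 2 and 3, were added after seeing the data. The members and gene lists were chosen with earlier results of these data known. All members were described, and up to 4 genes of each other list with the smallest p were open to naming, and the other genes named beside them, such as Krt5, Foxj1 and the overlapping genes, were chosen after their values were seen. A gene of the luminal list is not reported here by its own values.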

Additional observations from a re-analysis of the deposited data

Results flagged for a closer look

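In 11 of 182 groups of 4 libraries, over 91 genes and list sums, 1 library stood far from the other 3 of its group by Dixon's criterion for the gap relative to the group's range. Chance alone flags about 5% of groups, but Krt5, Krt14 and Krt15 were put into the set once their values were known. The count is therefore no test against that share. Among the members, Dsc2 in deficient library 2 was at 162 CPM, where the other 3 libraries ranged from 21.3 to 38.8 CPM. Prss8 in deficient library 3 was at 70.5 CPM, where the other 3 libraries ranged from 57.7 to 59.4 CPM. Ocln in control library 1 was at 39.9 CPM, where the other 3 libraries ranged from 31.8 to 33.0 CPM. Of the basal keratins, Krt5 and Krt14 stood apart in library 2 of both groups, at very different levels. In deficient library 2 Krt5 was at 102 CPM, where the other 3 libraries ranged from 0.0274 to 0.695 CPM, Krt14 at 11.2 CPM, where the other 3 libraries ranged from 0.0547 to 0.156 CPM, and Krt15 at 17.2 CPM, where the other 3 libraries ranged from 0.0851 to 0.150 CPM. In control library 2 Krt5 was at 0.437 CPM, where the other 3 libraries ranged from 0.0413 to 0.0548 CPM, and Krt14 at 0.183 CPM, where the other 3 libraries ranged from 0.0689 to 0.0846 CPM. Of the other named genes, S100a4 in deficient library 3 was at 10.3 CPM, where the other 3 libraries ranged from 14.6 to 15.2 CPM, Cxcl15, a gland chemokine, in control library 3 at 27.7 CPM, where the other 3 libraries ranged from 4.19 to 7.90 CPM, and Hand2, a stromal transcription factor, in control library 4 at 229 CPM, where the other 3 libraries ranged from 161 to 172 CPM.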

How the results depend on the processing

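Counts of calls depended on the tool and on single libraries. With edgeR the calls over all genes were 0 with all libraries and in all scalings and filters tried, 23 with the replicate block, 0 to 2 on leaving out 1 library (2 without control library 2), against 2488 with DESeq2 and 2 with limma-voom. Members called were 0 in edgeR under every alternative run, and 4 with DESeq2. On leaving out 1 library, edgeR's count over all genes at an unadjusted p of 0.05 lay between 2896, without control library 4, and 5471, without deficient library 4, members under it from 5 to 18, members without overlap from 3 to 7, and the median member difference from 0.11 (without deficient library 2) to 0.49. Members at an unadjusted p under 0.05 were 5 without control library 4 and without deficient library 2 or 3, 6 without control library 3, 7 without control library 1 and 18 without deficient library 1. DESeq2 calls on leaving out 1 library ran from 927 (without control library 4) to 3961 (without deficient library 4) over all genes, and from 1 (without deficient library 2 or 3) to 13 (without deficient library 1) over members, with 2 without control library 4 and 11 without deficient library 4. Limma-voom left 6 members at an unadjusted p under 0.05, and upper quartile scaling gave 5 members without overlap.

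Without deficient libraries 2 and 3, which were chosen for their high values, the median was -0.10, with 15 positive members and 10 without overlap. DESeq2 called 1461 genes and 2 members in that setting. The sign turned there in 17 members, with log2 differences of -0.10 for Epcam, -0.10 for Cdh1, -0.45 for Krt7, -0.28 for Krt19, 0.13 for Cldn1, 0.28 for Cldn3, 0.0271 for Cldn4, -0.36 for Cgn, -0.11 for Crb3, -0.00225 for Dsp, -0.13 for Jup, -0.27 for Perp, -0.71 for Ovol2, -0.0478 for Esrp2, -0.16 for Rab25, -0.23 for Ap1m2 and -0.65 for St14. On leaving out 1 library the sign was not kept in Cldn3 (-0.25 to 0.12), Cldn4 (-0.33 to 0.23), Ocln (-0.0807 to 0.0564), Cgn (-0.10 to 0.15), Crb3 (-0.00233 to 0.24) and St14 (-0.17 to 0.27). Cgn also turned with library totals (-0.0149). With limma-voom the values were 0.021 for Cldn4, -0.0065 for Cgn and -0.0305 for St14, and with the replicate block 0.021, -0.0030 and -0.0288. The cause of these changes was not tested. The labels state no pairing by replicate number, and the counts did not settle it. Deviations of same-numbered libraries correlated at 0.20, 0.24, -0.01 and -0.08 for numbers 1 to 4. The same number gave the best match for numbers 1 and 2 and not for 3 and 4. The block is therefore given only here, and it changed no member's call. Genes as low as Krt5 in most libraries were not tested at this depth.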
